A study of Homo sapiens with 9 samples.

Results

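Lamin A/C knockdown (Kd) was compared with Lamin B2 Kd on 6 of the 9 arrays of the series, 3 cultures per knockdown, chosen by their sample titles alone. All were DLD1 cells, a human colorectal adenocarcinoma line, transfected with 100 nM siRNA for 48 h, against Lamin A/C in one group and against Lamin B2 in the other. The labels and methods give 1 siRNA sequence per target, so an effect of a lamin and an effect of its siRNA cannot be told apart. The other 3 arrays came from untreated DLD1 cells, which received no siRNA; their levels are given beside those of the knockdowns, and they add to the estimate of the spread. RNA of 1 culture was hybridized to each single-color Agilent array, so that each group had 3 independent biological replicates per the methods of the study. Bulk RNA was measured, in which fewer cells that express a gene and less RNA per cell cannot be told apart.

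Lamins are the intermediate filament proteins of the nucleus. LMNA encodes Lamin A and Lamin C by alternative splicing, whereas the B-type Lamins have a gene each, LMNB1 and LMNB2. They line the inner nuclear membrane, where they bind chromatin and membrane proteins such as emerin, LBR and the SUN proteins, and A-type Lamins also occur in the nuclear interior. The comparison asked which transcripts distinguish the loss of an A-type Lamin from that of a B-type Lamin when both cultures were transfected in the same way.

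Levels are log2 intensities minus the median of their array, so that 0 is the median probe and 1 unit is a 2-fold step. What limits an array is its signal over background. The share of spots well above background was 66.3, 65.6 and 68.0% on Lamin A/C Kd arrays 1, 2 and 3. On Lamin B2 Kd arrays 1, 2 and 3 it was 66.6, 74.1 and 72.8%. Lamin B2 Kd replicate 3 stood apart from the other arrays. The array was deposited without multiplicative detrending, a processing step whose effect cannot be told apart from that of its slide. It was the single array on its slide, its correlation with the other 8 arrays over 30489 probes was between 0.969 and 0.980, and it deviated from its group mean by an SD of 0.365, against 0.161 to 0.175 for Lamin A/C Kd arrays and 0.237 and 0.254 for the other Lamin B2 Kd arrays. The counts of genes called are therefore given with and without it, and a called gene is given without it, or under another setting, where the call was lost or the difference moved by more than 1.5 times. Among these settings, normexp is a background correction whose offset draws low signals together. Arrays left out in turn are named by group and replicate number. Markers of a colon epithelial line were read in both knockdowns. KRT18, KRT8, KRT19, EPCAM and CDH1, keratins and adhesion proteins of epithelia, were at 8.49 or higher, the intestinal transcription factor CDX2 was at 4.20 and 3.89, VIL1, which encodes villin, was at 2.64 and 2.17, KRT20, a keratin of differentiated cells, was at −1.53 and −0.86, and CEACAM5 was above background on 1 of the 6 knockdown arrays.

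The probes of LMNB2 and of other marker genes of the comparison are shown first, since more than 1 probe reads REG4 and CDC42. Each probe has 60 bases, and its first 30 are printed from the deposited files, 5′ to 3′, in lower case; capitals mark bases shared with a qRT-PCR primer of the study for that gene, a match of at least 12 bases.
LMNB2: ttttttccaatgatttgtaatatacatttt
TMEM14B: CGTTTGGGGTTTCCTAGCcgctacatctgt
REG4 probe 1: CTCTTCCTTTCTGCTagcctggctaaatct
REG4 probe 2: ccaggagtttcaaagaagcgctagtaaggt
CDC42 probe 1: gtgacctgaaggctgtcaagtatgtggagt
CDC42 probe 2: gcttATTTTGGTTGCAGTTTCCAAttttta
CDC42 probe 3: atgacagattacgaccgctgagttatccac
CDC42 probe 4: tcccactactgtagaaagatcgtttaaaaa
Over the whole probe, the primers labelled A shared 36 bases with CDC42 probe 2, 35 with REG4 probe 1 and 18 with TMEM14B, and no primer matched the other CDC42 probes or REG4 probe 2.

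Each siRNA lowered its own target relative to the other knockdown. LMNA, on chromosome 1, was at 4.84, 5.14 and 5.03 on the Lamin A/C Kd arrays and 8.83, 8.83 and 7.97 on the Lamin B2 Kd arrays (controls 8.79, 8.79 and 8.91) on its brightest probe. The 3 Lamin A/C Kd arrays lay below every other array, and the difference, Lamin A/C Kd minus Lamin B2 Kd with its standard error (SE), was −3.54 (SE 0.22, adjusted p = 0.000132), an 11.6-fold lower signal in Lamin A/C Kd by limma's moderated test with Benjamini-Hochberg adjustment over all probes tested. On its other probe, LMNA was at 3.59 ± 0.25 in Lamin A/C Kd against 7.01 ± 0.62 in Lamin B2 Kd (SD, n = 3). LMNA differed by −3.42 (SE 0.27, adjusted p = 0.000244). LMNB2, on chromosome 19, was at 5.11, 5.31 and 5.18 on the Lamin A/C Kd arrays and 3.1, 3.48 and 3.15 on the Lamin B2 Kd arrays (controls 5.44, 5.51 and 5.74). Here the 3 Lamin B2 Kd arrays were the low ones. LMNB2 differed by 1.96 (SE 0.14, adjusted p = 0.000206), a 3.89-fold higher signal in Lamin A/C Kd. Without Lamin B2 Kd replicate 3 the differences were −3.83 for LMNA on its brightest probe and 1.91 for LMNB2. The signal left in the knocked-down cultures was 7.04% of the control mean for LMNA and 19.99% for LMNB2, on arrays whose signal does not measure protein.

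LMNB1, on chromosome 5, was targeted by neither siRNA, and its groups overlapped. It was at 4.09, 4.24 and 3.72 on the Lamin A/C Kd arrays and 4.31, 5.32 and 3.46 on the Lamin B2 Kd arrays (controls 4.83, 4.81 and 5.38). The Lamin B2 Kd arrays thus spanned the Lamin A/C Kd range, and the difference of −0.35 (SE 0.40) did not pass the test (adjusted p = 0.599). The difference was −0.80 when Lamin B2 Kd replicate 3 was left out and 0.13 when replicate 2 was, and neither passed.

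**Figure D1:**
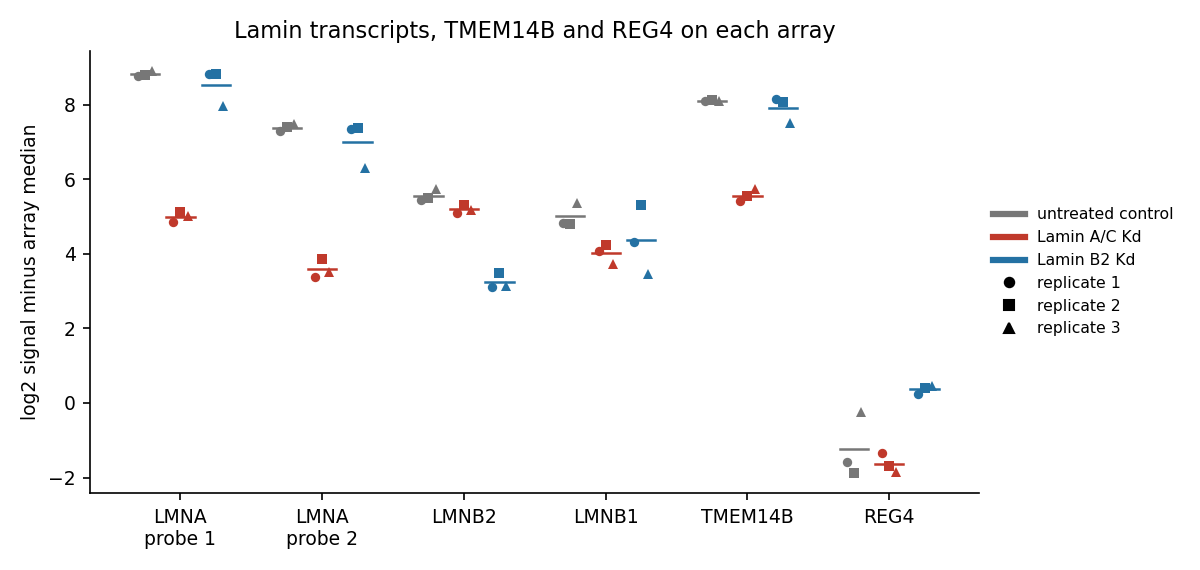
Log2 signal minus the array median (y axis) of LMNA on both probes, LMNB2, LMNB1, TMEM14B and REG4 on each of the 9 arrays; points are arrays, their shape is the replicate number, and horizontal lines are group means. LMNA and TMEM14B were low on the 3 Lamin A/C Kd arrays, LMNB2 on the 3 Lamin B2 Kd arrays, REG4 was above 0 on the Lamin B2 Kd arrays alone, and LMNB1 overlapped between the knockdowns.

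The knockdowns differed in a large set of genes. Of 21852 gene names with a probe well above background throughout 1 knockdown or both, 3439 (15.7%) differed at an adjusted p under 0.05 on their brightest probe. The signal was higher in Lamin A/C Kd for 2449 (11.2%) and higher in Lamin B2 Kd for 990 (4.53%). This split depended on the scaling of the arrays: 71.2% of the called genes were higher in Lamin A/C Kd after the shift by the median, 51.7% after a shift by the 75th percentile (2521 against 2353 genes), 59.5% after quantile normalization and 58.0% without Lamin B2 Kd replicate 3. The median difference over all genes was 0.05 after the shift by the median and moved by −0.12 with the 75th percentile. Without Lamin B2 Kd replicate 3, 4223 genes were called (19.3%), 2451 higher in Lamin A/C Kd and 1772 higher in Lamin B2 Kd, and 3164 of the 3439 genes remained called in the same direction (92.0%).

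A difference of at least 2-fold was reached by 775 of the called genes (3.55% of those tested), 572 higher in Lamin A/C Kd (2.62%) and 203 higher in Lamin B2 Kd (0.929%). With the 75th percentile these were 377 and 304, with quantile normalization 509 and 223, and with normexp 194 and 94. Of the 775, 640 were well above background on all 6 knockdown arrays, while 14 genes were so in Lamin A/C Kd but on no Lamin B2 Kd array and 40 the reverse, and their fold was not measured. Without Lamin B2 Kd replicate 3 there were 664 such genes, 403 higher in Lamin A/C Kd and 261 higher in Lamin B2 Kd, and 540 of the 775 kept their call, direction and 2-fold size (69.7%). The position of the untreated cells was read for each direction. Lamin B2 Kd replicate 3, which deviated most from its group mean, was included, and the position was not read without it. Among the 203 genes higher in Lamin B2 Kd, the mean of Lamin A/C Kd was farther from the control mean than that of Lamin B2 Kd in 141 (69.5%), while among the 572 genes higher in Lamin A/C Kd this was so in 237 (41.4%). This is a description and was not tested. Of the 21852 genes, 7374 had several tested probes, and 17 had probes called in opposite directions.

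**Figure D2:**
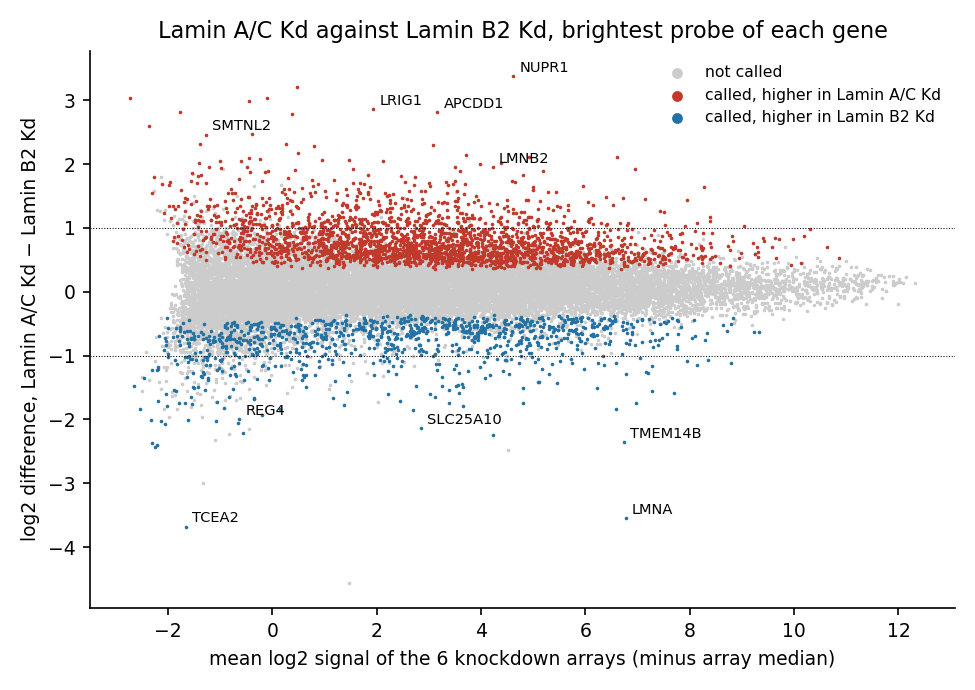
Log2 difference of Lamin A/C Kd minus Lamin B2 Kd (y axis) against the mean log2 signal of the 6 knockdown arrays (x axis), 1 point per gene on its brightest tested probe, with dotted lines at 2-fold. LMNA (−3.54) lay at the lower edge of the called genes and NUPR1 (3.38) at the upper edge. TCEA2, plotted at the lower edge too, was well above background on no Lamin A/C Kd array, so its plotted difference was not measured.

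Among genes well above background on all 6 knockdown arrays, the largest excess in Lamin A/C Kd was that of NUPR1, a small nuclear protein induced by cell stress. NUPR1 was at 6.28, 6.32 and 6.33 on the Lamin A/C Kd arrays and 3.06, 3.19 and 2.52 on the Lamin B2 Kd arrays (controls 4.56, 4.45 and 4.52). The knockdowns lay on opposite sides of the untreated cells, and the difference was 3.38 (SE 0.17, adjusted p = 5.6e-05), or 10.4-fold. LRIG1, a membrane protein that restrains ERBB receptors, was at 3.41, 3.46 and 3.21 on the Lamin A/C Kd arrays and 0.43, 0.93 and 0.14 on the Lamin B2 Kd arrays (controls 1.34, 1.53 and 1.64). LRIG1 differed by 2.86 (SE 0.19, adjusted p = 0.00016). APCDD1, a membrane inhibitor of Wnt signaling, was at 4.63, 4.64 and 4.43 on the Lamin A/C Kd arrays and 1.90, 1.84 and 1.52 on the Lamin B2 Kd arrays (controls 2.91, 2.89 and 3.17). APCDD1 differed by 2.82 (SE 0.14, adjusted p = 5.6e-05). For these genes too, Lamin A/C Kd was above and Lamin B2 Kd below every control array. WNT11, a Wnt ligand, differed by 2.32 (SE 0.15, adjusted p = 0.000148) on 1 probe and by 0.11 on another (adjusted p = 0.69). WNT11 was called at 1.33 with normexp and 1.22 as the mean of its tested probes.

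AKR1C1, an aldo-keto reductase that reduces steroids, was at 1.95 in Lamin A/C Kd against −0.34 in Lamin B2 Kd and −0.62 in controls. AKR1C1 differed by 2.29 (SE 0.17, adjusted p = 0.000234). Its other tested probes differed by 1.99 (adjusted p = 0.0856) and 1.04 (adjusted p = 0.00631); the AKR1C genes are close copies of each other, and sharing of signal between them was not tested. MKNK2, a kinase of the translation factor eIF4E, was instead low in Lamin B2 Kd, at 2.30 ± 0.30 against 4.42 ± 0.18 in Lamin A/C Kd (SD, n = 3) and 4.15 in controls. MKNK2 differed by 2.13 (SE 0.17, adjusted p = 0.000244). Its other probes were called in the same direction, at 1.65 and 1.19. ZNF837, a zinc finger gene of chromosome 19, differed by 2.31 (SE 0.21, adjusted p = 0.000397) and by 2.24 on a further probe. LDLRAD1, which has an LDL receptor domain, and CABYR, a calcium-binding protein of the sperm tail, differed by 2.17 (adjusted p = 0.000337) and 2.14 (adjusted p = 0.000148). RPS29, a protein of the small ribosomal subunit, differed by 2.37 (SE 0.12, adjusted p = 5.6e-05) on the probe the rule took, whereas its other 3 probes, among them its brightest, differed by 0.04, 0.07 and 0.18 and were not called (adjusted p between 0.544 and 0.872). AKR1C1 was called at 1.49 with normexp. LDLRAD1 was called at 1.19 with normexp. RPS29 was called at 0.66 as the mean of its tested probes.

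In the opposite direction, LMNA was followed by TMEM14B, which encodes a small membrane protein. TMEM14B was at 5.41, 5.56 and 5.73 on the Lamin A/C Kd arrays and 8.17, 8.09 and 7.51 on the Lamin B2 Kd arrays (controls 8.11, 8.12 and 8.10). The 3 Lamin A/C Kd arrays were apart from all others. TMEM14B differed by −2.36 (SE 0.18, adjusted p = 0.000234), or 5.12-fold lower in Lamin A/C Kd. ZC3HAV1, the zinc finger antiviral protein that binds viral RNA, was at 2.86, 2.96 and 3.50 on the Lamin A/C Kd arrays and 5.40, 5.26 and 5.36 on the Lamin B2 Kd arrays (controls 5.28, 5.34 and 5.28). ZC3HAV1 differed by −2.24 (SE 0.16, adjusted p = 0.000206), and a dimmer probe was called at −1.14. A further probe was called too, but was well above background on 1 of the 3 Lamin A/C Kd arrays. SLC25A10, the mitochondrial dicarboxylate carrier, was at 1.55, 2.05 and 1.75 on the Lamin A/C Kd arrays and 4.08, 4.31 and 3.37 on the Lamin B2 Kd arrays (controls 4.32, 4.35 and 4.46). Its lowest Lamin B2 Kd value was that of replicate 3, and the difference was −2.14 (SE 0.23, adjusted p = 0.000796), and −2.42 without that array.

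CDC42, a small GTPase that organizes actin and cell polarity, differed on 1 of 4 probes. On probe 2, the probe that shares bases with the primers labelled A, it was at 3.40, 3.38 and 3.57 on the Lamin A/C Kd arrays and 5.64, 5.37 and 5.50 on the Lamin B2 Kd arrays (controls 6.12, 6.0 and 5.92). This is 4.15-fold lower in Lamin A/C Kd. CDC42 differed by −2.05 (SE 0.12, adjusted p = 0.000103). On probe 1, the brightest, it was at 6.46, 6.39 and 6.59 on the Lamin A/C Kd arrays and 6.90, 6.71 and 6.52 on the Lamin B2 Kd arrays, groups that overlapped. CDC42 differed by −0.23 (SE 0.13, adjusted p = 0.266). Probes 3 and 4 differed by −0.23 (adjusted p = 0.41) and 0.40 (adjusted p = 0.0908). The brightest probe was called with a shift by the 75th percentile (−0.35, adjusted p = 0.0224) and with quantile normalization (−0.33, adjusted p = 0.0278), and the mean of the tested probes passed the test at −0.53.

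KLK10, a secreted kallikrein protease, was at 2.75 ± 0.022 in Lamin A/C Kd against 4.70 ± 0.22 in Lamin B2 Kd (SD, n = 3). KLK10 differed by −1.95 (SE 0.13, adjusted p = 0.000151), and by −1.83 on its brighter probe. C20orf3, now named APMAP, a membrane protein known from adipocytes, differed by −1.89 (SE 0.15, adjusted p = 0.000239) and by −1.58 on its brighter probe. GLTP, which transfers glycolipids between membranes, differed by −1.85 (SE 0.18, adjusted p = 0.000519). C12orf4, now named FERRY3, a subunit of an endosomal complex that carries mRNA, differed by −1.78 and −1.24 on its 2 probes. In these 4 genes the control level, between 3.40 and 4.87 on the probes taken, lay closer to Lamin B2 Kd than to Lamin A/C Kd. SNORA2B, a small nucleolar RNA that guides pseudouridylation, was at −0.67, −0.78 and −0.87 on the Lamin A/C Kd arrays and 1.29, 0.81 and 1.11 on the Lamin B2 Kd arrays (controls 0.04, −0.40 and −0.18), with Lamin B2 Kd above the controls. SNORA2B differed by −1.84 (SE 0.16, adjusted p = 0.000356). SNORA2B was called at −1.02 with normexp.

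**Figure D3:**
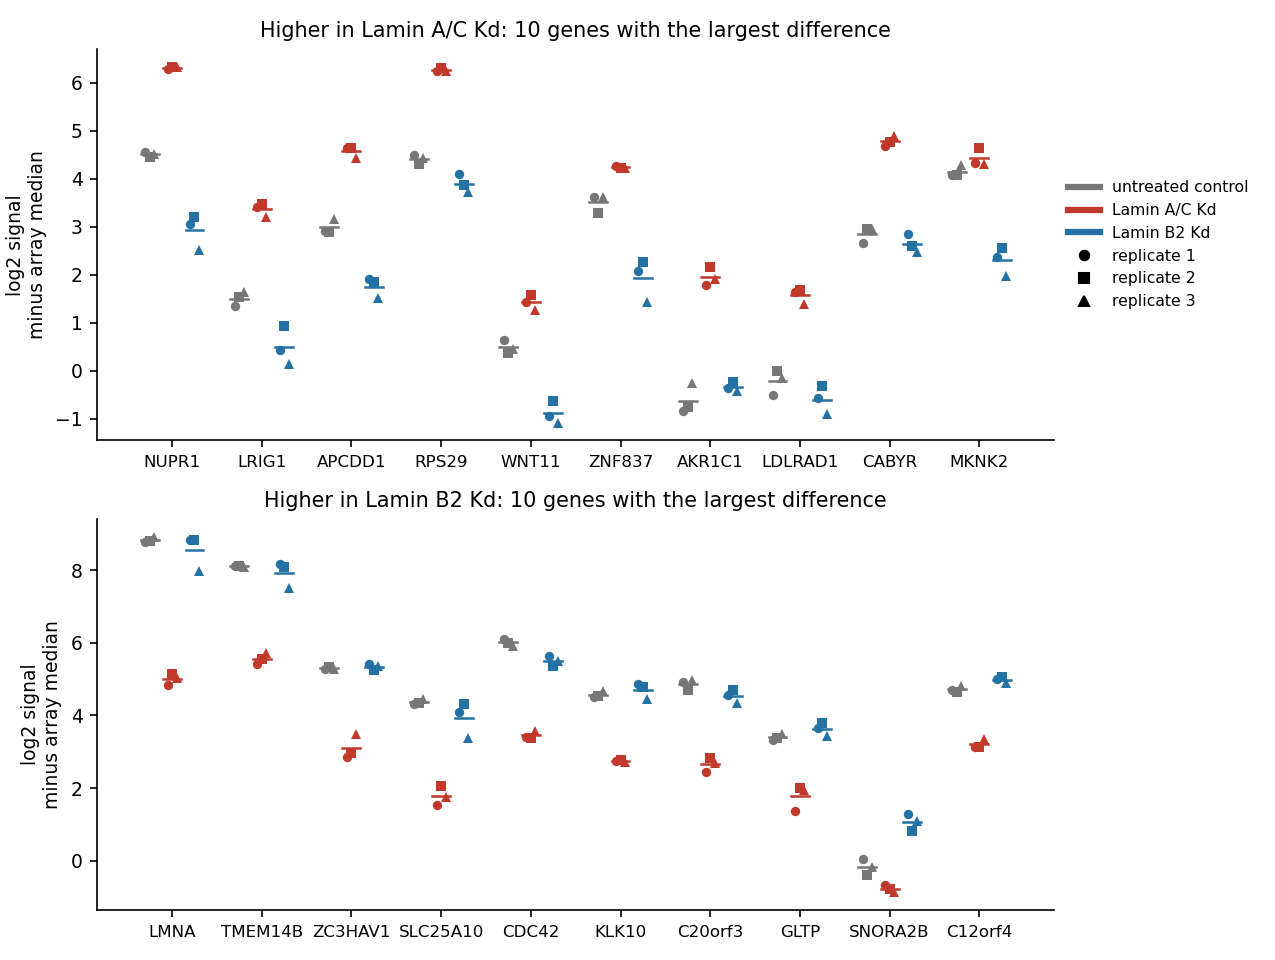
Log2 signal minus the array median (y axis) of the 10 genes with the largest difference in each direction (x axis), for all 9 arrays; points are arrays, their shape is the replicate number, and lines are group means. NUPR1, LRIG1 and APCDD1 lay above the controls in Lamin A/C Kd and below them in Lamin B2 Kd, whereas most genes of the lower panel were near the control level in Lamin B2 Kd.

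Some transcripts were well above background on every array of 1 knockdown and on none of the other, so that the fold is a lower limit, the mean of the brighter group over, on each array of the dimmer group, its lowest signal well above background or the probe's own signal where that was higher. These limits are for the signal shifted by the median. With normexp, which adds an offset to both groups, the measured differences were smaller and lay below the limit in each of these genes. They entered the test through the knockdown in which they were bright, so the adjusted p, of a fit to measured signals that include those not well above background, is given as a description. TCEA2, a form of the transcription elongation factor TFIIS, was at −4.08, −3.60 and −2.80 on the Lamin A/C Kd arrays and 0.40, 0.61 and −0.45 on the Lamin B2 Kd arrays (controls −0.29, −0.50 and −0.22). It was at least 4.06-fold lower in Lamin A/C Kd (adjusted p = 0.000454). The 3 controls were well above background. RASGRP3, an exchange factor that activates Ras, was at least 2.35-fold lower in Lamin A/C Kd (adjusted p = 0.0101). Its 3 controls were also well above background. CCDC42B, now CFAP73 and part of cilia, CLDN20, a claudin, and APOC4, an apolipoprotein, were at least 3.3-fold, 2.45-fold and 2.24-fold higher in Lamin B2 Kd (adjusted p = 0.0227, 0.0194 and 0.0343). CCDC42B was not called without Lamin A/C Kd 1 or 3 or Lamin B2 Kd 1. CLDN20 was not called without Lamin A/C Kd 1 or 3 or Lamin B2 Kd 1. APOC4 was not called without control 3 or Lamin A/C Kd 1, 2 or 3 or Lamin B2 Kd 2 or 3. CCDC42B and CLDN20 lost the call with no filter on detection. APOC4 lost the call with no filter on detection, with only the 6 knockdown arrays in the fit and with the replicate block. TCEA2 was called at −1.08 with normexp. RASGRP3 was called at −0.47 with normexp. CCDC42B was called at −0.71 with normexp. CLDN20 was not called with quantile normalization or at −0.51 with normexp, and was called at −0.92 as the mean of its tested probes. APOC4 was called at −0.43 with normexp.

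In the reverse pattern, SMTNL2, a smoothelin-like protein, was at −0.06, −0.24 and 0.18 on the Lamin A/C Kd arrays and −2.24, −2.12 and −3.15 on the Lamin B2 Kd arrays (controls −2.29, −2.31 and −1.41). It was higher in Lamin A/C Kd by at least 4.06-fold (adjusted p = 0.00163). Of the 3 controls, 1 was well above background. CGNL1, the tight junction protein paracingulin, was at least 3.58-fold higher (adjusted p = 0.000696), and PGM5, a phosphoglucomutase relative of adherens junctions, at least 2.66-fold higher (adjusted p = 0.00226). The noncoding RNA C10orf75, now OLMALINC, was at least 2.19-fold higher (adjusted p = 0.00117), with −0.93 in Lamin A/C Kd and −1.12 in controls. CCDC83 was at least 2.93-fold higher (adjusted p = 0.0354). CCDC83 was not called without Lamin A/C Kd 1, 2 or 3 or Lamin B2 Kd 1, 2 or 3. CCDC83 lost the call with no filter on detection. SMTNL2 was called at 0.80 with normexp. CGNL1 was called at 0.79 with normexp. PGM5 was called at 0.50 with normexp and 0.54 as the mean of its tested probes. C10orf75 was called at 0.40 with normexp and 0.85 as the mean of its tested probes. CCDC83 was not called without multiplicative detrending, and was called at 0.58 with normexp.

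Further genes that the study followed by qRT-PCR or named as controls are grouped here by their pattern. Since candidates were picked from these arrays, their differences are a description of the study's choice. Higher in Lamin A/C Kd with Lamin B2 Kd closer to the controls were AKR1C3 and AKR1B10. AKR1C3, a prostaglandin and steroid reductase, was at 5.27, 5.54 and 5.34 on the Lamin A/C Kd arrays and 3.37, 3.61 and 3.15 on the Lamin B2 Kd arrays (controls 2.90, 3.15 and 3.55). AKR1C3 differed by 2.01 (SE 0.19, adjusted p = 0.000424). AKR1B10, a reductase of retinal and other aldehydes, differed by 1.57 (SE 0.16, adjusted p = 0.000632) and 1.38 on its 2 probes. Low in Lamin B2 Kd with Lamin A/C Kd near the controls were MESDC2, KRCC1 and C1orf144. MESDC2, now MESD, a chaperone of LDL receptor relatives, was at 5.69, 5.67 and 5.83 on the Lamin A/C Kd arrays and 3.91, 3.91 and 3.87 on the Lamin B2 Kd arrays (controls 5.77, 5.85 and 5.88). MESDC2 differed by 1.83 (SE 0.10, adjusted p = 8.01e-05). KRCC1 differed by 1.46 (SE 0.14, adjusted p = 0.000511), and C1orf144, now SZRD1, by 2.11 (SE 0.14, adjusted p = 0.000148). Of the other 3 C1orf144 probes, 2 were called in the same direction (1.17 and 1.06) and 1 was not (0.30, adjusted p = 0.238). C1orf144 was called at 1.16 as the mean of its tested probes.

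REG4, a secreted lectin of the regenerating family found in intestinal secretory cells, was called higher in Lamin B2 Kd. On probe 1 it was at −1.35, −1.69 and −1.85 on the Lamin A/C Kd arrays and 0.23, 0.41 and 0.45 on the Lamin B2 Kd arrays (controls −1.59, −1.88 and −0.25). The 3 Lamin B2 Kd arrays were above all others, and the difference was −2.0 (SE 0.36, adjusted p = 0.00699). REG4 was well above background on 2 of the 3 Lamin A/C Kd arrays, so it entered the test through Lamin B2 Kd, where it was bright. Its p is therefore given as a description. Control replicate 3 was higher than the other controls. Probe 2 was dimmer, at −2.97, −3.96 and −4.18 on the Lamin A/C Kd arrays and −1.5, −1.79 and −2.44 on the Lamin B2 Kd arrays, and was not tested, being well above background on 2 Lamin B2 Kd arrays and no Lamin A/C Kd array. REG4 was called at −0.84 with normexp.

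The remaining genes were not called on their brightest probe, with the exception of LRRC47. PTGS2, which makes prostaglandins, was at −1.18 and −1.03 (difference −0.15, adjusted p = 0.748) and was above background on no control array. Its difference was −0.26 to −0.02 with 1 array left out. MANSC1 was at 1.49, 1.60 and 1.74 on the Lamin A/C Kd arrays and 0.72, 0.54 and 1.02 on the Lamin B2 Kd arrays, with a difference of 0.85 that did not pass (adjusted p = 0.0714) but did with normexp background correction (0.60, adjusted p = 0.0133), with only the 6 knockdown arrays in the fit (0.85, adjusted p = 0.0285) and without control replicate 1 or 3. HNRPK, a pre-mRNA binding protein now named HNRNPK, differed by −0.37 (adjusted p = 0.0966) on its brightest probe and by 0.19 on another; the brightest probe was called without Lamin B2 Kd replicate 3 (−0.50, adjusted p = 0.00889). It was also called with the 75th percentile (−0.49), quantile normalization (−0.43), normexp (−0.53) and the background-subtracted signal (−0.45). ITGA2, the collagen-binding integrin subunit, differed by −0.07 (adjusted p = 0.866), KPNA7, an importin, by 0.55 (adjusted p = 0.434) and TMEM204 by −0.20 (adjusted p = 0.456) on their brightest probes. As arrays were left out in turn these differences, none of them called, were −0.35 to 0.15, −0.06 to 0.86 and −0.32 to −0.02, and KPNA7 was at −0.06 without Lamin B2 Kd replicate 3. A dimmer KPNA7 probe, well above background on 1 of the 3 Lamin A/C Kd arrays, was at −0.53 (adjusted p = 0.637), and a dimmer ITGA2 probe was at −0.50 (adjusted p = 0.348). ITGA2 had 2 further probes, not tested, that were well above background on 2 Lamin B2 Kd arrays and on no Lamin A/C Kd array. Another TMEM204 probe was called at 0.54 (adjusted p = 0.048). LRRC47 was called, at 0.53 (adjusted p = 0.0226), but not with the 75th percentile or quantile normalization, with no filter, with only the 6 knockdown arrays or with the replicate block. LRRC47 was not called without Lamin A/C Kd 2 or 3 or Lamin B2 Kd 2 (difference 0.43 to 0.52). Its other probes were at 0.47 (adjusted p = 0.0393) and 0.73 (adjusted p = 0.125). The brightest probes of ACTB and GAPDH differed by 0.02 and 0.15 (adjusted p = 0.931 and 0.404), and ACTB was below 0 with the 75th percentile, quantile normalization and normexp, as the mean of its probes, without Lamin A/C Kd replicate 2 and without Lamin B2 Kd replicate 3. ZNF570 was not tested, being well above background on 2 Lamin B2 Kd arrays and on no Lamin A/C Kd array.

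Gene lists by function were then read against the shares of all genes, 11.2% called higher in Lamin A/C Kd and 4.53% higher in Lamin B2 Kd, with no test of a list. The lists were chosen with earlier results of these data known, so their shares are a description. Differences are Lamin A/C Kd minus Lamin B2 Kd on the log2 scale. Counts of a list are given first for genes higher in Lamin A/C Kd and then for those higher in Lamin B2 Kd, and other scalings are named where they turned the larger count or moved a count by more than 1.5 times. Of 29 lists, the median relative to that of all genes kept its sign with quantile normalization, with normexp and without Lamin B2 Kd replicate 3 in 25, while ribosomal proteins, oxidative phosphorylation, proteasome subunits and the fibroblast and endothelial markers changed sign. A shift by another percentile moves all genes alike and cannot change this relative median.

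Among Lamins and proteins of the nuclear envelope, both siRNA targets and 2 other genes of 27 tested were called, so that 2 were higher in Lamin A/C Kd and 2 higher in Lamin B2 Kd. TMEM43, an inner nuclear membrane protein also called LUMA, was at 6.47 in Lamin A/C Kd, 5.53 in Lamin B2 Kd and 5.98 in controls. TMEM43 differed by 0.94 (SE 0.15, adjusted p = 0.00455). UNC84A, now SUN1, which joins Lamins to the cytoskeleton through nesprins, differed by −0.41 (SE 0.11, adjusted p = 0.0343). Genes of other Lamin partners did not pass the test, with differences of −0.27 for LBR, −0.30 for TMPO, which encodes the LAP2 proteins, −0.21 for EMD, which encodes emerin, −0.02 for BANF1 and −0.06 for ZMPSTE24, the protease that matures Lamin A. Without Lamin B2 Kd replicate 3 these were −0.30, −0.48, −0.51, −0.11 and −0.12, of which TMPO passed (adjusted p = 0.0437). Counts for Lamins and envelope genes were 2 and 5 without Lamin B2 Kd replicate 3, 2 and 5 with the 75th percentile, 2 and 4 with quantile normalization and 2 and 5 with normexp. Of nuclear pore and transport genes, 40 were tested, and limma called 0 higher in Lamin A/C Kd (1 at an unadjusted p under 0.05) and 2 were higher in Lamin B2 Kd, namely NUP50, a nucleoporin of the basket, at −0.65 (adjusted p = 0.0185) and XPO1, the main export receptor, at −0.43 (adjusted p = 0.0353). Counts for nuclear pore genes were 0 and 7 without Lamin B2 Kd replicate 3, 0 and 11 with the 75th percentile, 0 and 9 with quantile normalization and 0 and 8 with normexp. UNC84A was not called without control 1, 2 or 3 or Lamin A/C Kd 1 or 2 or Lamin B2 Kd 1 or 2 (difference −0.41 to −0.36). NUP50 was not called without Lamin A/C Kd 1 or 2 (difference −0.60 to −0.54). XPO1 was not called without control 1, 2 or 3 or Lamin A/C Kd 1 or 2 or Lamin B2 Kd 1 or 2 (difference −0.43 to −0.37). UNC84A and XPO1 lost the call with no filter on detection, with only the 6 knockdown arrays in the fit and with the replicate block. NUP50 lost the call with only the 6 knockdown arrays in the fit. UNC84A, at −0.10 as the mean of its tested probes, was then not called.

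Of the called genes of chromosome replication and segregation, more were lower than higher in Lamin A/C Kd relative to Lamin B2 Kd. Of mitosis genes, 37 were tested, of which 2 were higher in Lamin A/C Kd and 5 were higher in Lamin B2 Kd, with a median difference of −0.16, led by HMMR, a spindle protein, at −0.96 (adjusted p = 0.00137), and ANLN, the cytokinesis scaffold anillin, at −0.61 (adjusted p = 0.0146). In the other direction were KIF2C, a microtubule-depolymerizing kinesin, at 0.72 (adjusted p = 0.00531) and INCENP, of the chromosomal passenger complex, at 0.58 (adjusted p = 0.0262). In both, Lamin B2 Kd lay farther below the controls than Lamin A/C Kd did. Of cohesin and condensin genes, 24 were tested, of which 1 was higher in Lamin A/C Kd and 4 were higher in Lamin B2 Kd, with a median of −0.17. The cohesin subunit SMC1A was at 4.05, 4.40 and 4.36 on the Lamin A/C Kd arrays and 5.43, 5.45 and 4.96 on the Lamin B2 Kd arrays (controls 5.61, 5.63 and 5.59). SMC1A differed by −1.01 (SE 0.16, adjusted p = 0.00417). The condensin subunits NCAPD3 and SMC4 differed by −0.83 (adjusted p = 0.00192) and −0.65 (adjusted p = 0.00488), whereas HDAC8, the deacetylase of cohesin, was at 0.49 (adjusted p = 0.0272). Of DNA replication genes, 39 were tested, of which 2 were higher in Lamin A/C Kd and 6 were higher in Lamin B2 Kd, with a median of −0.09.

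The replicative helicase subunits MCM6 and MCM4 were among those lower in Lamin A/C Kd. MCM6 was at 7.18, 7.46 and 7.56 on the Lamin A/C Kd arrays and 8.55, 8.49 and 8.42 on the Lamin B2 Kd arrays (controls 8.62, 8.55 and 8.69). MCM6 differed by −1.09 (SE 0.13, adjusted p = 0.00109), and MCM4 differed by −0.76 (adjusted p = 0.00903). POLA1, the catalytic subunit of DNA polymerase alpha, differed by −0.51 (adjusted p = 0.0144), and CCNE1, the S phase cyclin E1, was higher in Lamin A/C Kd, at 0.68 (adjusted p = 0.00512). Counts for mitosis genes were 2 and 13 without Lamin B2 Kd replicate 3, 2 and 19 with the 75th percentile, 2 and 16 with quantile normalization and 2 and 13 with normexp. Counts for cohesin and condensin were 1 and 7 without Lamin B2 Kd replicate 3, 1 and 12 with the 75th percentile, 1 and 12 with quantile normalization and 1 and 8 with normexp. Counts for DNA replication genes were 2 and 10 without Lamin B2 Kd replicate 3, 2 and 15 with the 75th percentile, 2 and 13 with quantile normalization and 2 and 12 with normexp. The counts higher in Lamin B2 Kd were thus larger without the array that stands apart and with the 75th percentile. ANLN was not called without Lamin A/C Kd 2 (difference −0.51). INCENP was not called without Lamin A/C Kd 3 or Lamin B2 Kd 2 (difference 0.43 to 0.53). HDAC8 was not called without control 1, 2 or 3 or Lamin A/C Kd 1, 2 or 3 or Lamin B2 Kd 1 (difference 0.42 to 0.53). POLA1 was not called without Lamin A/C Kd 1 or 2 (difference −0.51 to −0.48). INCENP lost the call with no filter on detection and with only the 6 knockdown arrays in the fit. HDAC8 lost the call with no filter on detection, with only the 6 knockdown arrays in the fit and with the replicate block. POLA1 lost the call with only the 6 knockdown arrays in the fit.

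Histone genes of the clusters went the other way. Of these, 24 were tested, of which 9 were higher in Lamin A/C Kd and limma called 0 higher in Lamin B2 Kd (0 at an unadjusted p under 0.05), with a median of 0.31. Counts for histone genes were 8 and 0 without Lamin B2 Kd replicate 3. HIST1H2AC was at 2.53, 2.58 and 2.80 on the Lamin A/C Kd arrays and 1.5, 1.29 and 1.36 on the Lamin B2 Kd arrays (controls 2.10, 2.16 and 2.18). HIST1H2AC differed by 1.25 (SE 0.12, adjusted p = 0.000454). HIST1H2BK differed by 1.09 (adjusted p = 0.0271), HIST2H2AA3 by 0.90 (adjusted p = 0.00304) and HIST1H2BH, which had no value on Lamin A/C Kd array 1, by 0.81 (adjusted p = 0.00954). These genes are near-identical copies whose probes may share signal, which was not tested. Of heterochromatin, Polycomb and DNA methylation genes, 33 were tested, of which 4 were higher in Lamin A/C Kd and 1 was higher in Lamin B2 Kd. Counts for these chromatin genes were 4 and 3 without Lamin B2 Kd replicate 3, 4 and 6 with the 75th percentile, 5 and 3 with quantile normalization and 6 and 3 with normexp. DNMT3A, a de novo DNA methyltransferase, was at 3.09 in Lamin A/C Kd, 2.05 in Lamin B2 Kd and 2.69 in controls. DNMT3A differed by 1.04 (SE 0.12, adjusted p = 0.000958). CBX1, which encodes HP1 beta, and CBX7, a Polycomb protein, were at 0.51 (adjusted p = 0.0196) and 0.51 (adjusted p = 0.027), and BMI1, of Polycomb complex 1, was at −0.47 (adjusted p = 0.0358). HIST1H2BK was not called without Lamin A/C Kd 1, 2 or 3 or Lamin B2 Kd 2 or 3 (difference 1.0 to 1.17). HIST1H2BH was not called without Lamin A/C Kd 3 (difference 0.79), which left it 1 Lamin A/C Kd value. CBX1 was not called without Lamin A/C Kd 2 or 3 (difference 0.48 to 0.51). CBX7 was not called without control 1 or Lamin A/C Kd 1, 2 or 3 (difference 0.48 to 0.53). BMI1 was not called without control 1, 2 or 3 or Lamin A/C Kd 1 or 2 or Lamin B2 Kd 1 or 2 (difference −0.49 to −0.40). HIST1H2BK lost the call with no filter on detection. CBX1 lost the call with only the 6 knockdown arrays in the fit and with the replicate block. CBX7 and BMI1 lost the call with no filter on detection, with only the 6 knockdown arrays in the fit and with the replicate block. HIST1H2AC was called at 0.71 as the mean of its tested probes. HIST1H2BK, at 0.98 with normexp and 1.07 without multiplicative detrending, was then not called. HIST1H2BH, at 1.72 in the authors' table and 1.74 with outlier spots kept, was then not called. DNMT3A was called at 0.65 as the mean of its tested probes. CBX1, at 0.57 as the mean of its tested probes, was then not called.

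Since the lists were chosen with earlier results known, their order is a description. NRF2 targets and aldo-keto reductases, genes of the response to electrophiles, had the highest share of called genes. Of these, 27 were tested, of which 13 were higher in Lamin A/C Kd and limma called 0 higher in Lamin B2 Kd (0 at an unadjusted p under 0.05) (48.1%), with a median of 0.52. Counts for NRF2 targets were 14 and 0 without Lamin B2 Kd replicate 3. AKR1C1, AKR1C3 and AKR1B10 are described above and 2 of them were chosen by the study from these arrays. ABCC3, an efflux pump of conjugates, was at 3.82, 3.8 and 3.93 on the Lamin A/C Kd arrays and 2.08, 2.29 and 2.09 on the Lamin B2 Kd arrays (controls 3.16, 2.63 and 2.87), above the controls in Lamin A/C Kd and below them in Lamin B2 Kd. ABCC3 differed by 1.70 (SE 0.15, adjusted p = 0.000357).

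Of genes of cholesterol and fatty acid synthesis, 32 were tested, of which 13 were higher in Lamin A/C Kd and 1 was higher in Lamin B2 Kd (43.8%), with a median of 0.46. TM7SF2, a sterol C14 reductase related to LBR, was at 7.91, 7.96 and 7.88 on the Lamin A/C Kd arrays and 6.29, 6.33 and 5.34 on the Lamin B2 Kd arrays (controls 6.86, 6.83 and 7.08). TM7SF2 differed by 1.93 (SE 0.24, adjusted p = 0.00145), and by 1.61 without Lamin B2 Kd replicate 3. SC5DL, a sterol desaturase now named SC5D, and INSIG1, the sterol-regulated retention protein of SREBP, differed by 1.09 (adjusted p = 0.00221) and 0.97 (adjusted p = 0.00368). Counts for sterol and lipid genes were 11 and 2 without Lamin B2 Kd replicate 3, 14 and 2 with the 75th percentile and 13 and 2 with quantile normalization. Of genes of the unfolded protein and integrated stress responses, 30 were tested, of which 10 were higher in Lamin A/C Kd and limma called 0 higher in Lamin B2 Kd (1 at an unadjusted p under 0.05) (33.3%), with a median of 0.33. DDIT4, an inhibitor of mTORC1 signaling, was at 6.75, 6.91 and 6.62 on the Lamin A/C Kd arrays and 5.44, 5.68 and 4.93 on the Lamin B2 Kd arrays (controls 6.09, 5.96 and 6.07). DDIT4 differed by 1.41 (SE 0.19, adjusted p = 0.00183). XBP1, the transcription factor of the unfolded protein response, and CTH, which makes cysteine, differed by 0.93 (adjusted p = 0.00193) and 0.93 (adjusted p = 0.000944). Counts for stress response genes were 10 and 1 without Lamin B2 Kd replicate 3, 10 and 1 with the 75th percentile, 10 and 1 with quantile normalization and 10 and 1 with normexp.

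The counts for heat shock, glycolysis, oxidative phosphorylation and splicing genes depended on the scaling. Of heat shock chaperones, 25 were tested, of which 2 were higher in Lamin A/C Kd and 1 was higher in Lamin B2 Kd, with AHSA1 and HSPA1B at 0.61 (adjusted p = 0.0407) and 0.52 (adjusted p = 0.0286) and CHORDC1, an HSP90 cofactor, at −0.71 (adjusted p = 0.00391); HSPA1B is nearly identical to HSPA1A. Counts for heat shock chaperones were 2 and 2 without Lamin B2 Kd replicate 3, 2 and 4 with the 75th percentile, 2 and 2 with quantile normalization and 2 and 3 with normexp. Of glycolysis and hypoxia genes, limma called none of 30 (4 at an unadjusted p under 0.05), the largest differences being ALDOA at 0.41 (adjusted p = 0.0864) and ENO2 at −0.38 (adjusted p = 0.0951), both glycolytic enzymes; ALDOA was called with normexp background correction (0.34, adjusted p = 0.0487) and ENO2 with the 75th percentile (−0.51, adjusted p = 0.0133), with quantile normalization (−0.46, adjusted p = 0.0207) and without Lamin B2 Kd replicate 3 (−0.46, adjusted p = 0.0475). Counts for glycolysis and hypoxia genes were 0 and 3 without Lamin B2 Kd replicate 3, 0 and 6 with the 75th percentile, 0 and 5 with quantile normalization and 1 and 0 with normexp. Of the oxidative phosphorylation list, 45 were tested, of which 1 was higher in Lamin A/C Kd and 1 was higher in Lamin B2 Kd, namely the complex I subunit NDUFB10 at 0.57 (adjusted p = 0.0418) and SLC25A10, the carrier described above, which is not part of the respiratory chain. Counts for oxidative phosphorylation genes were 1 and 3 without Lamin B2 Kd replicate 3, 1 and 6 with the 75th percentile, 1 and 3 with quantile normalization and 1 and 3 with normexp. Of ribosomal protein genes, limma called none of 43 on the brightest probe (0 at an unadjusted p under 0.05), the largest differences being RPS12 at 0.33 (adjusted p = 0.206) and RPL36 at 0.28 (adjusted p = 0.329), and without Lamin B2 Kd replicate 3 RPL36 was at 0.07. Counts for ribosomal protein genes were 0 and 0 without Lamin B2 Kd replicate 3. Of proteasome subunits, 34 were tested, of which 3 were higher in Lamin A/C Kd and limma called 0 higher in Lamin B2 Kd (0 at an unadjusted p under 0.05), PSMA3 at 0.70 (adjusted p = 0.00957), PSME4 at 0.55 (adjusted p = 0.0278) and PSMD7 at 0.41 (adjusted p = 0.0484). Counts for proteasome subunits were 2 and 0 without Lamin B2 Kd replicate 3, 3 and 1 with the 75th percentile, 4 and 1 with quantile normalization and 3 and 1 with normexp. Of splicing and mRNA 3′ end processing genes, 36 were tested, of which 2 were higher in Lamin A/C Kd and limma called 0 higher in Lamin B2 Kd (3 at an unadjusted p under 0.05), PRPF19 at 0.88 (adjusted p = 0.0466) and HNRPA1, now HNRNPA1, at 0.45 (adjusted p = 0.0246). Counts for splicing genes were 2 and 2 without Lamin B2 Kd replicate 3, 2 and 6 with the 75th percentile, 2 and 4 with quantile normalization and 2 and 1 with normexp.

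Several of these calls were lost when 1 array was left out. AHSA1 was not called without control 1, 2 or 3 or Lamin A/C Kd 1, 2 or 3 (difference 0.53 to 0.67). HSPA1B was not called without Lamin A/C Kd 1, 2 or 3 or Lamin B2 Kd 1 (difference 0.49 to 0.55). NDUFB10 was not called without control 1, 2 or 3 or Lamin A/C Kd 1, 2 or 3 or Lamin B2 Kd 2 (difference 0.54 to 0.63). PSME4 was not called without control 1 or 3 or Lamin A/C Kd 2 or 3 (difference 0.50 to 0.55). PSMD7 was not called without control 1, 2 or 3 or Lamin A/C Kd 1, 2 or 3 or Lamin B2 Kd 2 or 3 (difference 0.32 to 0.44). PRPF19 was not called without control 1, 2 or 3 or Lamin A/C Kd 1, 2 or 3 (difference 0.82 to 0.98), and was called at 0.54 without Lamin B2 Kd replicate 3. HNRPA1 was not called without control 1 or Lamin A/C Kd 1, 2 or 3 (difference 0.41 to 0.47). AHSA1, HSPA1B, NDUFB10, PSME4, PSMD7 and HNRPA1 lost the call with no filter on detection, with only the 6 knockdown arrays in the fit and with the replicate block. PRPF19 lost the call with no filter on detection and with only the 6 knockdown arrays in the fit. AHSA1, at 0.62 without multiplicative detrending and 0.59 in the authors' table, was then not called. NDUFB10, at 0.54 in the authors' table, was then not called. PSMD7, at 0.39 in the authors' table, was then not called. PRPF19, at 0.92 as the mean of its tested probes, was then not called.

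DLD1 cells carry a truncated APC, the brake of Wnt signaling, and Wnt targets mark crypt cells of the colon. Of Wnt pathway and target genes, 27 were tested, of which 9 were higher in Lamin A/C Kd and 1 was higher in Lamin B2 Kd (37.0%), with a median of 0.29. Counts for Wnt genes were 9 and 2 without Lamin B2 Kd replicate 3, 9 and 2 with the 75th percentile and 9 and 2 with quantile normalization. EPHB2, a receptor of crypt cells, was at 5.06, 5.07 and 4.80 on the Lamin A/C Kd arrays and 3.08, 3.26 and 2.56 on the Lamin B2 Kd arrays (controls 4.09, 4.15 and 4.38). EPHB2 differed by 2.01 (SE 0.19, adjusted p = 0.000429). ASCL2, the stem cell transcription factor of the crypt, and SP5, a transcription factor induced by Wnt, differed by 1.18 (adjusted p = 0.00327) and 1.06 (adjusted p = 0.00284), and MESDC2 of this list is given above. EPHB2 and ASCL2 lay on either side of the controls in the knockdowns, with 8.99 in Lamin A/C Kd, 7.81 in Lamin B2 Kd and 8.79 in controls for ASCL2. SP5 was called at 0.65 as the mean of its tested probes.

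Genes of differentiated colon cells were mostly higher in Lamin B2 Kd where called, in counts that include calls given as a description (REG4 and DPP4). Of secretory genes, 19 were tested, of which 1 was higher in Lamin A/C Kd and 4 were higher in Lamin B2 Kd (21.1% higher in Lamin B2 Kd), of 26 on the array. Beside REG4, SPDEF, the transcription factor of goblet cells, differed by −0.80 (adjusted p = 0.0068) and TFF1, a trefoil peptide secreted with mucus, by −0.68 (adjusted p = 0.0138), whereas the mucin MUC20 was at 0.71 (adjusted p = 0.0368). Of absorptive genes, 19 were tested, and limma called 0 higher in Lamin A/C Kd (3 at an unadjusted p under 0.05) and 3 were higher in Lamin B2 Kd, of 28 on the array, namely CA2, a carbonic anhydrase, at −0.73 (adjusted p = 0.00799), LGALS4, a galectin, at −0.69 (adjusted p = 0.0283) and DPP4, a brush border peptidase, at −0.51 (adjusted p = 0.0319), with DPP4 well above background on 2 of 3 Lamin A/C Kd arrays. DPP4, like REG4, entered the test through Lamin B2 Kd, where it was bright, so its p is given as a description. Counts for secretory genes were 1 and 6 without Lamin B2 Kd replicate 3. Counts for absorptive genes were 0 and 4 without Lamin B2 Kd replicate 3. TFF1 was not called without Lamin A/C Kd 2 (difference −0.67). MUC20 was not called without control 1, 2 or 3 or Lamin A/C Kd 1, 2 or 3 (difference 0.68 to 0.74), and was called at 0.46 without Lamin B2 Kd replicate 3. LGALS4 was not called without Lamin A/C Kd 1 or 2 or Lamin B2 Kd 1 or 2 (difference −0.70 to −0.57). DPP4 was not called without control 1 or 2 or Lamin A/C Kd 1 or 2 or Lamin B2 Kd 1 (difference −0.53 to −0.41). TFF1 lost the call with only the 6 knockdown arrays in the fit. MUC20, LGALS4 and DPP4 lost the call with no filter on detection, with only the 6 knockdown arrays in the fit and with the replicate block. LGALS4 was called at −0.35 with normexp. DPP4, at −0.36 with quantile normalization and −0.13 with normexp, was then not called.

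Of the called integrin and matrix genes, more were higher in Lamin B2 Kd. Of integrin and matrix genes, 28 were tested, of which 1 was higher in Lamin A/C Kd and 4 were higher in Lamin B2 Kd, with a median of −0.09. Counts for integrin and matrix genes were 2 and 7 without Lamin B2 Kd replicate 3. FN1, which encodes fibronectin, was at −1.26, −1.31 and −0.99 on the Lamin A/C Kd arrays and 0.59, 0.53 and 0.37 on the Lamin B2 Kd arrays (controls −0.23, −0.18 and 0.19). FN1 differed by −1.69 (SE 0.15, adjusted p = 0.000389), with Lamin A/C Kd below and Lamin B2 Kd above the control mean. ITGA3, the laminin-binding integrin subunit, was at 1.39, 1.80 and 1.62 on the Lamin A/C Kd arrays and 2.84, 3.44 and 2.24 on the Lamin B2 Kd arrays (controls 3.06, 3.04 and 3.41). ITGA3 differed by −1.24 (SE 0.27, adjusted p = 0.0157). COL17A1, the hemidesmosome collagen, and ITGA1, a collagen-binding subunit, differed by −1.01 (adjusted p = 0.00249) and −0.82 (adjusted p = 0.0298). Of keratin and junction genes, 32 were tested, of which 2 were higher in Lamin A/C Kd and 2 were higher in Lamin B2 Kd. Counts for keratin and junction genes were 2 and 7 without Lamin B2 Kd replicate 3, 2 and 6 with the 75th percentile, 2 and 5 with quantile normalization and 2 and 3 with normexp. KRT80, a keratin, and PKP2, a desmosome plaque protein, differed by −1.07 (adjusted p = 0.00128) and −0.80 (adjusted p = 0.00264), and CLDN3, a claudin, and DSC2, a desmosomal cadherin, by 1.07 (adjusted p = 0.00899) and 0.84 (adjusted p = 0.0381). Of actin, SRF and YAP targets, 30 were tested, of which 2 were higher in Lamin A/C Kd and 1 was higher in Lamin B2 Kd; beside SMTNL2 they were CYR61, a matricellular YAP target now named CCN1, at −0.77 (adjusted p = 0.0207), and LATS2, a Hippo kinase, at 0.60 (adjusted p = 0.0314). Counts for actin, SRF and YAP targets were 1 and 5 without Lamin B2 Kd replicate 3, 3 and 4 with the 75th percentile, 2 and 3 with quantile normalization and 2 and 2 with normexp. ITGA3 was not called without Lamin A/C Kd 1 or 3 (difference −1.25 to −1.13). ITGA1 was not called without Lamin A/C Kd 1 or 2 or Lamin B2 Kd 1 or 2 (difference −0.90 to −0.60). DSC2 was not called without control 1, 2 or 3 or Lamin A/C Kd 1, 2 or 3 (difference 0.80 to 0.90), and was called at 0.54 without Lamin B2 Kd replicate 3. CYR61 was not called without Lamin A/C Kd 2 or Lamin B2 Kd 1 (difference −0.62). LATS2 was not called without control 1, 2 or 3 or Lamin A/C Kd 2 or 3 or Lamin B2 Kd 2 or 3 (difference 0.47 to 0.66). ITGA1 and LATS2 lost the call with no filter on detection, with only the 6 knockdown arrays in the fit and with the replicate block. DSC2 and CYR61 lost the call with no filter on detection and with only the 6 knockdown arrays in the fit. FN1 was called at −0.79 with normexp. COL17A1 was called at −0.66 with normexp. ITGA1, at −0.31 with normexp, was then not called. KRT80, at −0.38 as the mean of its tested probes, was then not called. CLDN3 was called at 0.63 as the mean of its tested probes. DSC2, at 0.82 in the authors' table, was then not called, and it was called at 0.34 with normexp. LATS2, at 0.48 as the mean of its tested probes, was then not called.

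Inflammatory and immediate early genes were called in both directions. Of these, 31 were tested, of which 5 were higher in Lamin A/C Kd and 9 were higher in Lamin B2 Kd (45.2%). Counts for inflammatory genes were 4 and 10 without Lamin B2 Kd replicate 3. DUSP6, a phosphatase of ERK induced by ERK signaling, was at 6.49, 6.51 and 6.59 on the Lamin A/C Kd arrays and 7.97, 7.85 and 7.53 on the Lamin B2 Kd arrays (controls 7.36, 7.5 and 7.33). DUSP6 differed by −1.25 (SE 0.13, adjusted p = 0.000766). CCL20, a chemokine of the epithelium, differed by −0.93 (adjusted p = 0.00327), while CXCL2, a neutrophil chemokine, was at 6.81, 6.61 and 7.06 on the Lamin A/C Kd arrays and 5.83, 5.31 and 5.27 on the Lamin B2 Kd arrays (controls 5.95, 5.97 and 6.02). CXCL2 differed by 1.36 (SE 0.17, adjusted p = 0.00166), and PTGS1, the constitutive cyclooxygenase, was at 1.07 (adjusted p = 0.0164). Of interferon response genes, 30 were tested, of which 7 were higher in Lamin A/C Kd and 1 was higher in Lamin B2 Kd, with a median of 0.22. Counts for interferon response genes were 8 and 2 without Lamin B2 Kd replicate 3. IFIT1, an interferon-induced RNA-binding protein, was at 2.59, 2.72 and 2.70 on the Lamin A/C Kd arrays and 1.74, 1.82 and 1.54 on the Lamin B2 Kd arrays (controls 2.19, 2.19 and 2.44). IFIT1 differed by 0.97 (SE 0.13, adjusted p = 0.00172), and MX1, IFI6 and USP18, of the same response, differed by 0.80 (adjusted p = 0.00331), 0.71 (adjusted p = 0.0101) and 0.62 (adjusted p = 0.0128). For IFIT1 the controls lay between the knockdowns. PTGS1 was not called without Lamin A/C Kd 2 or 3 (difference 0.95 to 1.09). USP18 was not called without Lamin A/C Kd 3 (difference 0.56). USP18 lost the call with only the 6 knockdown arrays in the fit. PTGS1 was called at 0.51 with normexp. IFI6, at 0.30 as the mean of its tested probes, was then not called. Of HOX genes, 27 were tested, of which 4 were higher in Lamin A/C Kd and 2 were higher in Lamin B2 Kd, with HOXD10 at 0.87 (adjusted p = 0.00659), HOXB13 at 0.86 (adjusted p = 0.0447), HOXA9 at 0.66 (adjusted p = 0.00709) and HOXB5 at −0.83 (adjusted p = 0.0053). Counts for HOX genes were 6 and 5 without Lamin B2 Kd replicate 3 and 4 and 4 with the 75th percentile. HOXB13 was not called without control 1, 2 or 3 or Lamin A/C Kd 1, 2 or 3 or Lamin B2 Kd 1 (difference 0.79 to 0.90), and was called at 0.56 without Lamin B2 Kd replicate 3. HOXB13 lost the call with no filter on detection, with only the 6 knockdown arrays in the fit and with the replicate block. HOXD10 was called at 0.48 with normexp.

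**Figure D4:**
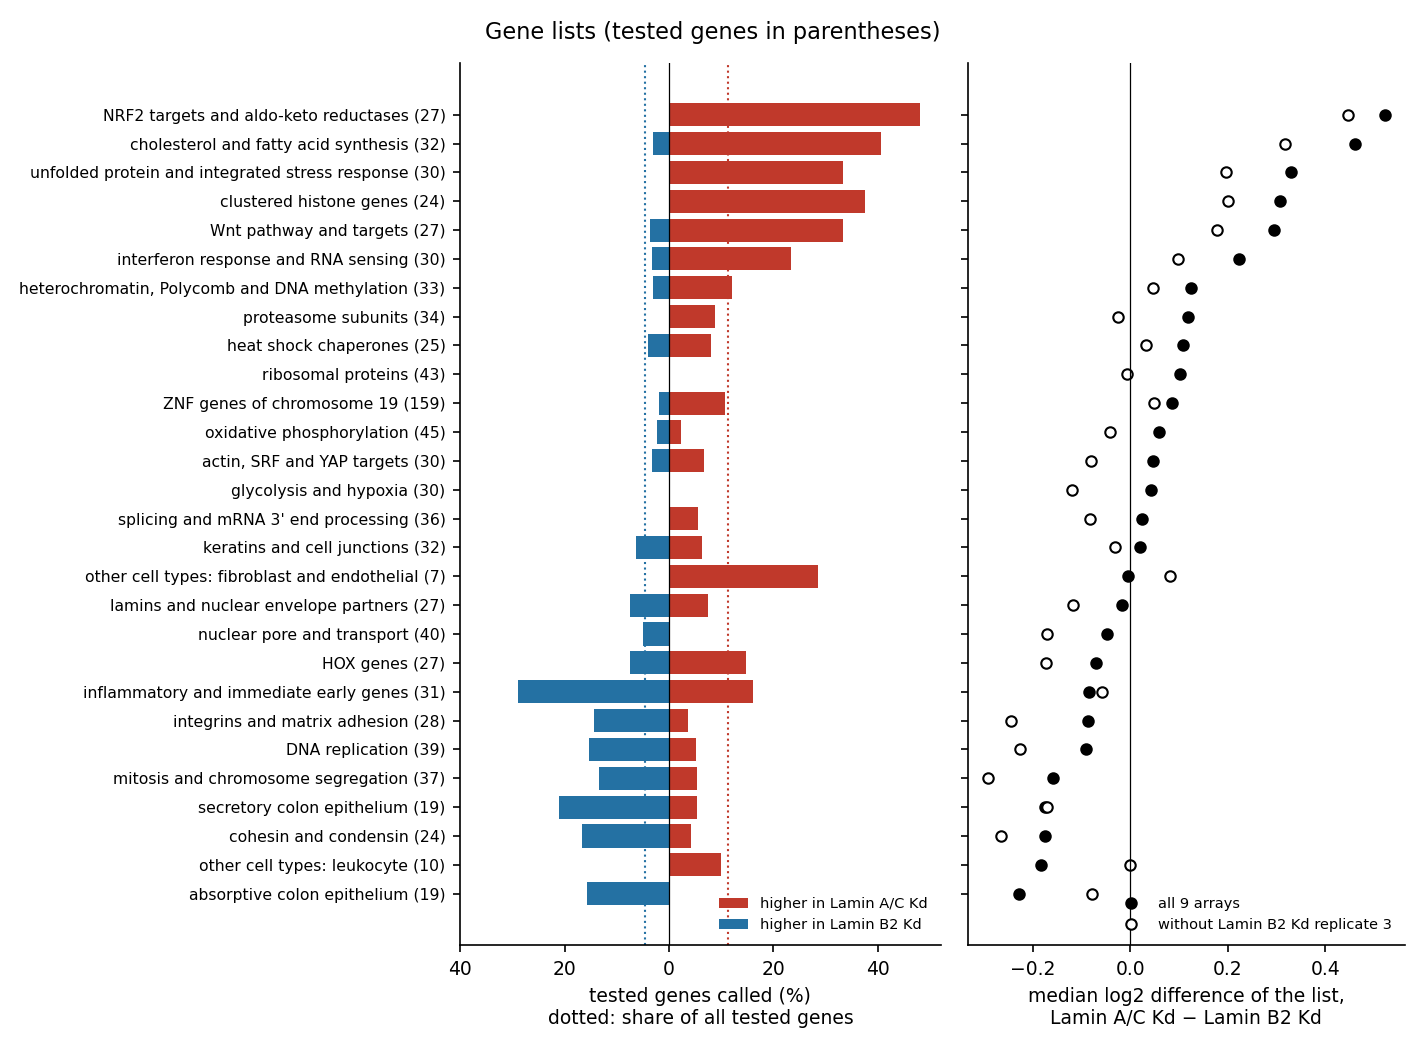
Left, share of the tested genes of each list shown called higher in Lamin A/C Kd (right of 0) or higher in Lamin B2 Kd (left of 0), in percent, with dotted lines at the shares of all genes (11.2% and 4.53%); right, median log2 difference of each list with all 9 arrays (filled) and without Lamin B2 Kd replicate 3 (open). NRF2 targets and aldo-keto reductases and sterol synthesis genes had the highest medians (0.52 and 0.46), and leaving out that array moved most medians to the left.

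Markers of cells that a DLD1 culture should lack were read in the same way. Of 15 fibroblast and endothelial markers, 7 were tested, and 7 to 10 were well above background on a knockdown array. THY1 was at 3.58 in Lamin A/C Kd against 3.87 in Lamin B2 Kd. The collagen genes COL1A1, COL1A2 and COL3A1 and the endothelial receptor TEK were well above background on at most 1 array of either knockdown. The summed linear level of the list was 17.5, 18.2 and 20.03 on the Lamin A/C Kd arrays and 20.2, 17.1 and 25.6 (Lamin B2 Kd replicate 3) on the Lamin B2 Kd arrays. PDGFRB and VWF were called, at 1.93 (adjusted p = 0.00235) and 0.50 (adjusted p = 0.0446), PDGFRB with 2 Lamin B2 Kd arrays above background. PDGFRB thus entered the test through Lamin A/C Kd, where it was bright, and its p is given as a description. Counts for fibroblast and endothelial markers were 1 and 0 without Lamin B2 Kd replicate 3, 1 and 0 with the 75th percentile and 1 and 0 with normexp. Of 15 leukocyte markers, 10 were tested and 10 to 12 were above background on a knockdown array. CD4 was at 5.10 and 5.08, while PTPRC, the pan-leukocyte marker CD45, was above background on 1 array of each knockdown and HLA-DRA on none. The summed level was 54.2, 51.3 and 52.0 on the Lamin A/C Kd arrays and 55.3, 46 and 61.4 on the Lamin B2 Kd arrays, and CD8A was called at 0.86 (adjusted p = 0.00243). Counts for leukocyte markers were 1 and 0 without Lamin B2 Kd replicate 3. The part of these transcripts in the other differences was not tested. VWF was not called without control 1, 2 or 3 or Lamin A/C Kd 2 or 3 or Lamin B2 Kd 1 or 3 (difference 0.41 to 0.50). VWF lost the call with no filter on detection, with only the 6 knockdown arrays in the fit and with the replicate block. PDGFRB was called at 0.74 with normexp. VWF, at 0.38 with the 75th percentile and 0.30 with normexp, was then not called. CD8A was called at 0.55 with normexp.

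The study asked which chromosomes were deregulated in each knockdown relative to untreated cells, counting 2-fold genes over all coding genes of a chromosome. It listed chromosome 19 first for Lamin B2 Kd and also among those of Lamin A/C Kd. The shares here are another measure, differences of any size between the knockdowns over tested genes. The direct comparison of the knockdowns was read by chromosome, taken from a reference table by gene name. Of 13819 protein-coding genes tested on chromosomes 1 to 22 and X, 12.7% were called higher in Lamin A/C Kd and 4.73% higher in Lamin B2 Kd. The share called in either direction was highest on chromosome 10 (24% of 521 genes) and lowest on chromosome 19 (12.2% of 1013 genes). The next lowest shares were those of chromosome 18 (14% of 186) and chromosome 5 (14.4% of 596), and the share was above 20% on chromosomes 13 (21.2% of 208), 2 and 6 (20.8% each). Without Lamin B2 Kd replicate 3, chromosome 10 (27.8%) and chromosome 19 (13.6%) remained the ends of this order, against 21.2% of all genes. The median difference was between 0.03 (chromosome 18) and 0.17 (chromosome 22), and between −0.04 and 0.06 without that array, when the median of all these genes was 0.01. No test was made between chromosomes, whose genes are not independent replicates.

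Chromosome 19 holds LMNB2 and large clusters of zinc finger genes. Of its ZNF genes, 159 were tested, of which 17 were higher in Lamin A/C Kd and 3 were higher in Lamin B2 Kd (10.69 and 1.89%), with a median of 0.08. Counts for ZNF genes of chromosome 19 were 17 and 7 without Lamin B2 Kd replicate 3, 16 and 9 with the 75th percentile and 17 and 9 with quantile normalization. Beside ZNF837, the largest measured differences were those of ZNF428 at 1.39 (adjusted p = 0.0151) and ZNF805 at 1.11 (adjusted p = 0.000502). ZNF649 was above background on no Lamin A/C Kd array, so the size of its difference was not measured and is not ranked. It was higher in Lamin B2 Kd by at least 1.11-fold (adjusted p = 0.0128, a description as for the other genes detected in 1 knockdown). ZNF428 was not called without Lamin A/C Kd 1 or 2 (difference 1.30 to 1.32). ZNF649 was not called without Lamin A/C Kd 1. ZNF649 was not called at −0.16 with normexp.

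**Figure D5:**
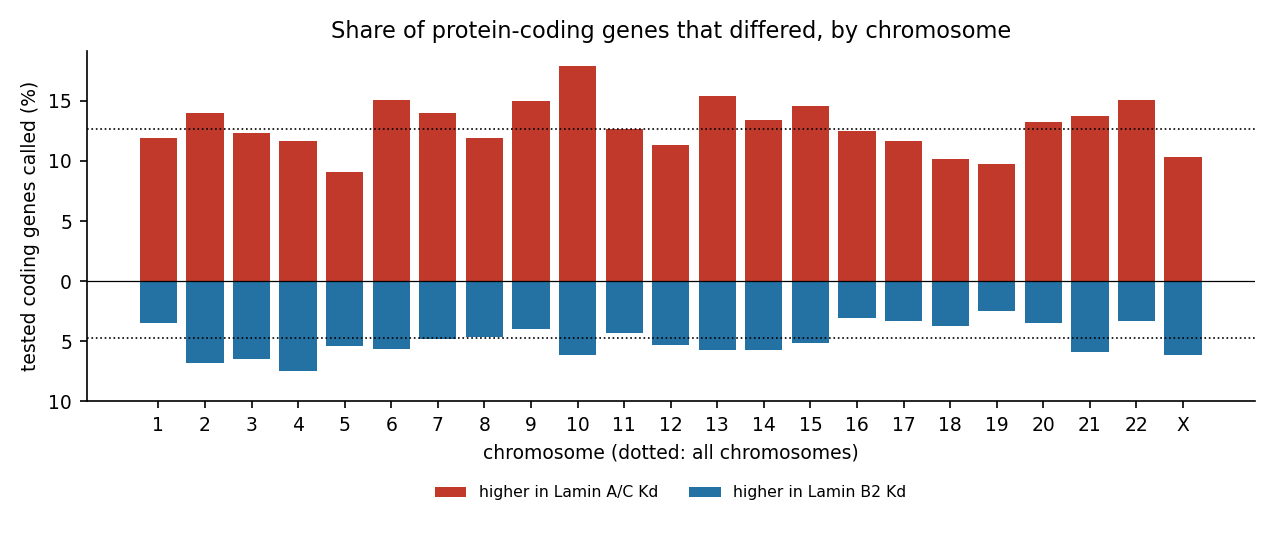
Share of tested protein-coding genes called higher in Lamin A/C Kd (above 0) or higher in Lamin B2 Kd (below 0) on each chromosome, in percent, with dotted lines at the shares over all chromosomes (12.7% and 4.73%). Chromosome 10 had the largest share called (24%) and chromosome 19 the smallest (12.2%).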

How the data were processed

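Scanner output of Feature Extraction (version 10.5 in the submitters' processing notes) was deposited per array; its processed intensity had background and spatial trends removed by the authors' software. The authors' own table holds log2 values, normalized to the 50th percentile and centered by row. Lamin B2 Kd replicate 3 had no multiplicative detrending. The table joins probes and numbers the Lamin B2 Kd sets in another order than the titles, so it served as an alternative. For each of 50238 probes, log2 intensity minus the array's 50th percentile was averaged over spots without an outlier flag. Saturation affected no spot.

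Tests covered the 33134 probes with at least 0.5 of their spots well above background throughout either knockdown (3 arrays). Lamin A/C Kd minus Lamin B2 Kd was fitted with limma 3.58.1 in R 4.3.3, by its moderated test, with a mean per group over all 9 arrays and Benjamini-Hochberg adjustment over all probes tested. A gene was called at an adjusted p under 0.05 on its brightest tested probe. With 3 arrays a group, precision is limited by their number. The steps were tested on simulated data.

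Genes named are those the study followed by qRT-PCR, the Lamins, ACTB and GAPDH; the 10 largest differences per direction among probes well above background on all 6 knockdown arrays, at least 2-fold with and without Lamin B2 Kd replicate 3 and without overlap; the 5 largest lower limits per direction; and up to 4 called genes per list (the 2 largest where none was called). Lamin partners without a call were named after their values were seen. Members and lists were chosen with earlier results of these data known. Gene names were matched to RefSeq (GRCh38.p14); 60.9% of 31033 names matched. Positions in the files are of an older build and are not given. Some genes, 1 gene list and some probe sequences are not reported here.

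Alternatives were shifts by the 75th percentile, quantile normalization, normexp (offset 50), background-subtracted signal, the authors' table, other detection filters, only the knockdown arrays, the replicate number or slide as a block, the mean of probes, outlier spots kept, 2-fold calls, and each array left out.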

Additional observations from a re-analysis of the deposited data

How the results depend on the processing

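LMNA on both probes and LMNB2 kept their direction and call under every alternative that gave them a value; as arrays were left out in turn, the difference was −3.83 to −3.39 for LMNA on its brightest probe and 1.89 to 2.08 for LMNB2. The count of 3439 genes was 1964 to 4223 with 1 array left out, and it was lowest without a Lamin A/C Kd array (2091, 1964 and 2014 without replicates 1, 2 and 3). Genes higher in Lamin A/C Kd were 1307 to 2451, genes higher in Lamin B2 Kd 510 to 1772, and genes that differed at least 2-fold 664 to 1045. The first 3 counts were 1530, 1063 and 467 in the authors' table. That table held fewer of the probes, joined others and was centered by row, and which of these moved the counts was not tested. The same counts were 2145, 1535 and 610 with no filter on detection, which adjusts over more probes. With only the 6 knockdown arrays, which leaves fewer samples, they were 1726, 1284 and 442. Genes higher in Lamin B2 Kd were 2353 with the 75th percentile, 1940 with quantile normalization and 1772 with the slide as a block, which is the value within the slide of the other 8 arrays. At least 2-fold, 288 genes differed with normexp, whose offset draws low signals together, and 405 in the authors' table. With the study's thresholds, 2-fold and a p under 0.05, the p taken here as unadjusted, 918 genes were called, and 775 with 2-fold and the adjusted p. A group reduced to 2 arrays shares the spread estimated over all groups. The cause of the differences between settings was otherwise not tested.

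With the replicate number of the titles as a block, 2377 genes were called, 1710 higher in Lamin A/C Kd, and 21 of the named genes lost their call. Same-numbered arrays of the knockdowns deviated from their group means with correlations of −0.03, 0.15 and 0.01, so the numbers were not taken to pair the arrays. Differently numbered arrays of the knockdowns were at −0.10 to 0.09. The authors' table numbers the Lamin B2 Kd sets in another order, so these values cannot decide whether the arrays were paired. A block by that order was not fitted. Of 121 named genes and probes that were called, 80 kept the call whichever array was left out, and no called value changed sign under any alternative.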
